A study of Mus musculus with 18 samples.

Results

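The genes described here are 9 markers of hippocampal CA pyramidal cells: Wfs1, Fibcd1, Spink8, Neurod6, Pou3f1, Man1a, Pcp4, Bok and Iyd. They were chosen by name as known markers, with earlier results of these data known, and all 9 of 9 were among the 55291 gene symbols measured, of which 40070 had a count in at least 1 library. Wild-type male C57BL/6J mice, 6 weeks old at surgery, received AAV-DJ GfaABC1D-EGFP-Rpl10a in the right CA3, so that a GFP-tagged ribosomal protein was made under a promoter active in astrocytes. In the AAV control group RNA was collected 2 weeks later. In the KA group kainic acid was injected into the right dentate gyrus 2 weeks after the virus and RNA was collected 14 days after that, and the PBS group received PBS in place of KA. Every group held 3 samples, each a pool of the right hippocampi of 3 to 4 mice, and every sample gave an input library of total hippocampal RNA and an IP library of RNA pulled down with an anti-GFP antibody, 18 libraries in all. The 3 groups therefore all carry the virus, the AAV controls were collected earlier after it than the other groups and received no second injection, and the labels call all libraries hippocampal astrocyte although input holds every cell type of the tissue.

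CA pyramidal cells are the glutamatergic projection neurons of Ammon's horn, and they form the cell layers of its CA1, CA2 and CA3 fields. KA excites neurons through kainate-type glutamate receptors, and loss of pyramidal cells beside gliosis is the known picture of the sclerotic hippocampus. Of the genes here, Wfs1, Fibcd1, Spink8, Pou3f1 and Man1a are known mainly from CA1, Bok and Iyd from CA3, Pcp4 from CA2 and from other cells including dentate granule cells, and Neurod6 from pyramidal cells of all CA fields. In bulk RNA, fewer cells of a type and less RNA per cell cannot be told apart.

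The libraries held between 7991681 and 16032180 counts (median 10313125). As a check of the IP label, all 10 of 10 astrocyte marker genes were enriched in IP over input in each group. Of all genes tested 13.3% were enriched in AAV control, 14.8% in PBS and 8.11% in KA. In KA all 8 oligodendrocyte genes were enriched too, with a median log2 value of 1.49 against 1.73 for the astrocyte genes. In AAV control and PBS no oligodendrocyte gene was. The KA IP was therefore enriched for markers of more than astrocytes. KA and AAV control samples #1 and #2 were sequenced in a first run, samples #3 in a second and all PBS samples in a separate one, so PBS and sequencing run cannot be told apart. Input AAV control #3 stood apart from the other AAV controls in choroid plexus markers (Ttr, Folr1, Kl and Kcnj13), with a summed FPKM of 16.03 against 2980 and 2114. The same sum was 2486 to 4479 in KA input and 18.5 to 290 in PBS input. FPKM is the count scaled by gene length and by library total, and values of different genes are compared only on that scale.

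Promoter sequence is shown for 5 of the genes, 3 that were lower in KA input (Iyd, Neurod6, Fibcd1) and both that rose in KA IP (Bok, Pcp4), so that the genes whose RNA moved together can be read side by side. Each line holds the 250 bases before the RefSeq transcription start on GRCm38.p6, read 5′ to 3′ on the gene's strand: chr10:3540024-3540273 on the plus strand for Iyd, chr6:55681264-55681513 on the minus strand for Neurod6, chr2:31846006-31846255 on the minus strand for Fibcd1, chr1:93685325-93685574 on the plus strand for Bok and chr16:96467356-96467605 on the plus strand for Pcp4. Capitals mark a match to CAGATG or CATATG on either strand, the E-boxes bound by factors of the NeuroD family.
Iyd: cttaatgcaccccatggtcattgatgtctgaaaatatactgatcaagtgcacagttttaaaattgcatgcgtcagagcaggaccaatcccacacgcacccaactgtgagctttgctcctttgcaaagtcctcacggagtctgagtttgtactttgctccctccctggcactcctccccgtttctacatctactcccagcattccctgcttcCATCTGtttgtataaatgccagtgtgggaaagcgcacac
Neurod6: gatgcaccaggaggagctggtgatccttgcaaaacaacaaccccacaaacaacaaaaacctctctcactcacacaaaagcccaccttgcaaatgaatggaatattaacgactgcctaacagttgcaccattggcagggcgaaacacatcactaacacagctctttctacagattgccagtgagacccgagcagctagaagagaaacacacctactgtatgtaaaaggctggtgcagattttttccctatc
Fibcd1: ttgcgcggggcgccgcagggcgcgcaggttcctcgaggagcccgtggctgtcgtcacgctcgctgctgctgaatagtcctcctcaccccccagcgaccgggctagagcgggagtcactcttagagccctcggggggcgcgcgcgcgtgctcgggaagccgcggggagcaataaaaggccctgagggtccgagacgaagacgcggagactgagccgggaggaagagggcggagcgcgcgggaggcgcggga
Bok: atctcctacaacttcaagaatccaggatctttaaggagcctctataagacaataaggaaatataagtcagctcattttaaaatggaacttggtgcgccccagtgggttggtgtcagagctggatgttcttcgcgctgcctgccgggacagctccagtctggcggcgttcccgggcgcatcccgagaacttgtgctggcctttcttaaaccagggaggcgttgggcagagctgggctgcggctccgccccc
Pcp4: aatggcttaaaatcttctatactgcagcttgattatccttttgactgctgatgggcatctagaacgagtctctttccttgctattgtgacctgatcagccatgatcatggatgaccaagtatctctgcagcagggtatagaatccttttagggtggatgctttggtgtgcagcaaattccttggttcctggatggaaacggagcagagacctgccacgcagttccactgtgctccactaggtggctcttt

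Among these lines the Iyd window held 1 such E-box, written CATCTG on its strand and starting at position -39 from the transcription start. The windows of Neurod6, Fibcd1, Bok and Pcp4 held none. Sequences were matched for 7 of the 9 genes, and besides Iyd the Wfs1 window (chr5:36988983-36989232, minus strand) held 1 match at -170. Of 32851 RefSeq promoter windows of the same length, 17.3% held at least 1 E-box of this kind. The octamer ATGCAAAT of POU factors, the family of Pou3f1, was in 1.6% of the windows and in none of the 7. The windows of Neurod6, Pcp4 and Iyd had a GC content of 46.0%, 46.8% and 48.4%, that of Bok 55.2%, and those of Wfs1, Fibcd1 and Man1a 69.6%, 71.6% and 72.4%, where the median window had 52.4%. Iyd, Neurod6 and Fibcd1, which were lower in KA input, thus came from both ends of this range. Spink8 and Pou3f1, also lower there, had no matched sequence.

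In the AAV control input, where the hippocampus had received the virus alone, the 9 genes spanned a wide range of levels per length. Spink8 (86.5 ± 39.3 FPKM, SD, n = 3), Neurod6 (82.4 ± 23.2), Pcp4 (75.5 ± 13.4) and Bok (71.8 ± 4.42) were the most abundant, and the ranges of these 4 overlapped. Pou3f1 (24.8 ± 0.891), Wfs1 (16.9 ± 0.877) and Fibcd1 (11.9 ± 1.97) followed in that order with no overlap between neighbours. Man1a (3.24 ± 0.690) and Iyd (2.53 ± 1.20) were the least abundant, and their ranges overlapped.

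**Figure D1:**
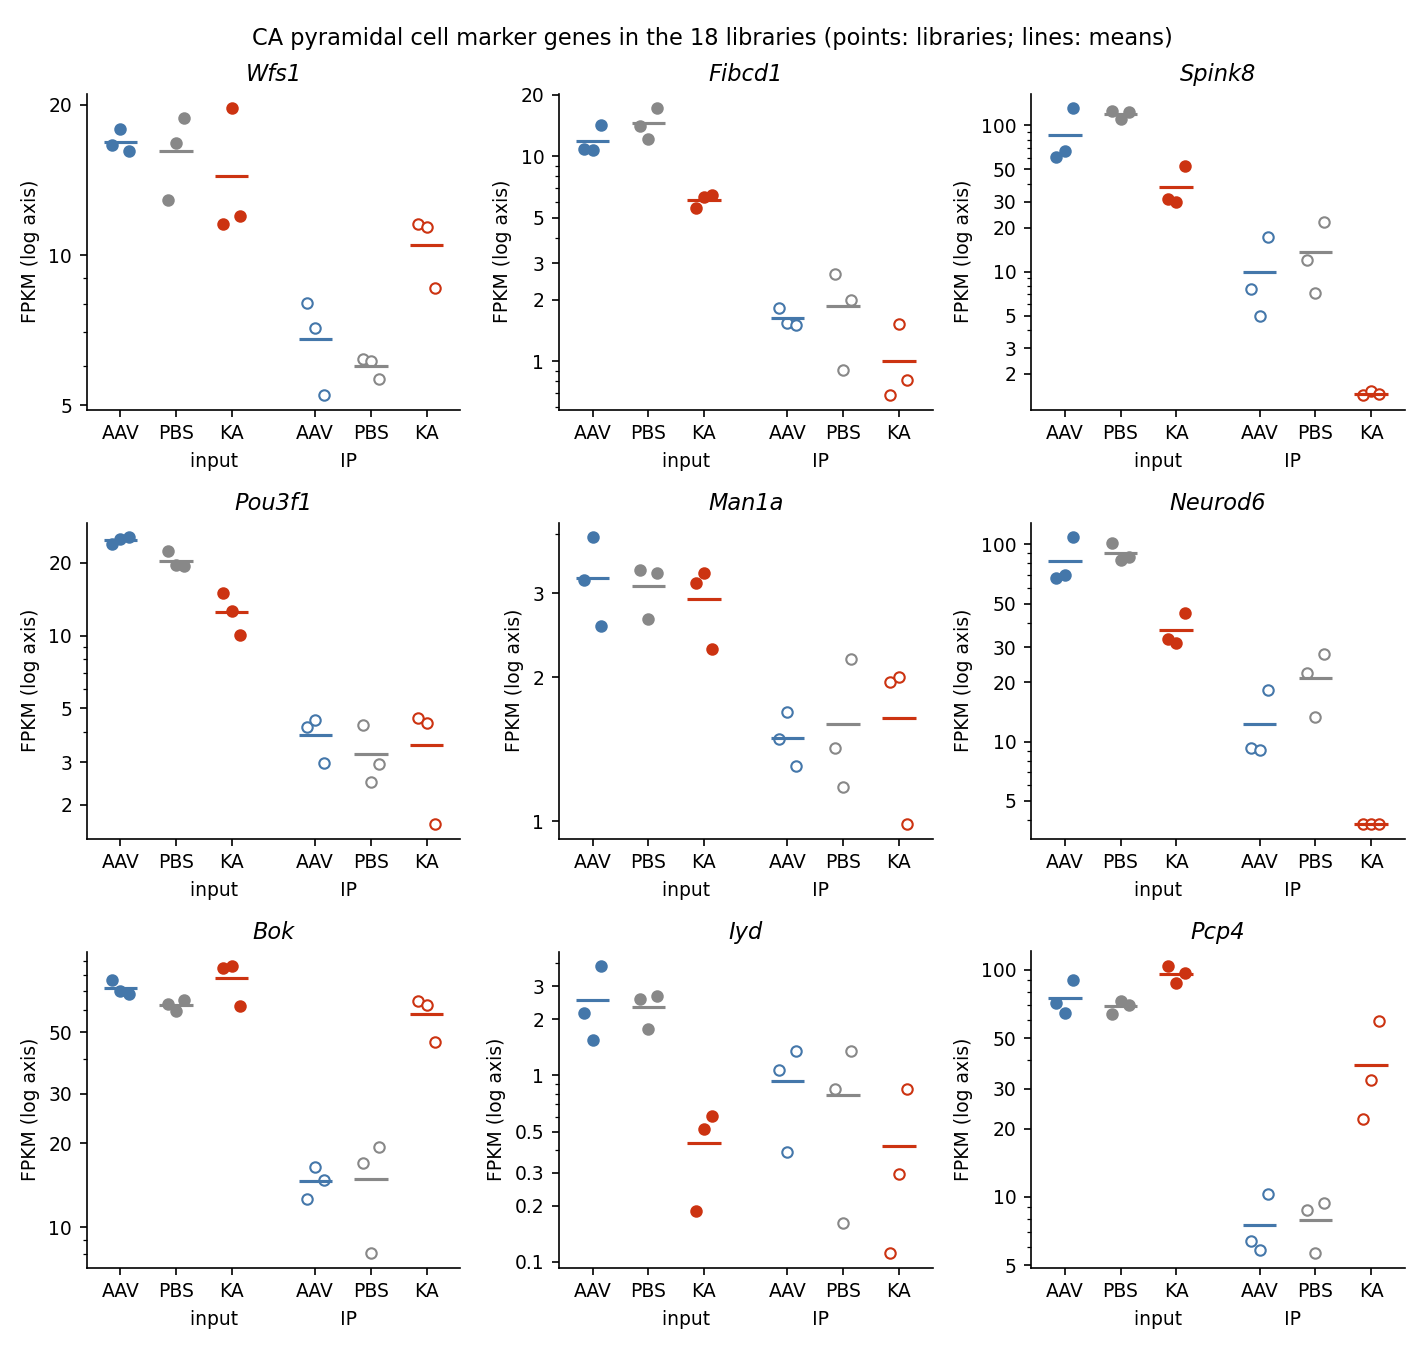
FPKM (log axis) of the 9 genes in the AAV control, PBS and KA groups, with input as filled points on the left of each panel and IP as open points on the right. Each point is 1 library and each line the mean of 3. In KA, Spink8 and Neurod6 lie below both control groups in input and in IP, while Bok and Pcp4 lie above both control groups in IP.

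The first question was whether the pyramidal cell markers were lower in the whole tissue after KA. Compared with AAV control, all 3 KA input libraries lay below all 3 AAV control libraries for Fibcd1, Spink8, Pou3f1, Neurod6 and Iyd (5 of 9 genes). No overlap in the lower direction was seen for 10.4% of all 10809 genes tested, a set that held 8 of the 9 and left out Iyd. None of the 8 genes that passed the filter (FPKM above 1 in all compared libraries) met both criteria for a differentially expressed gene, an adjusted p under 0.05 and a change of at least 2-fold, where 0.185% of all genes tested met them in the lower direction and 2.7% in either. Fibcd1 and Pou3f1 met the adjusted p alone, as did 4.49% of all genes. The median log2 fold change of the 8 genes was -0.60, against -0.03 over all genes. Compared with PBS, 3 of the 8 fell (Fibcd1, Spink8 and Neurod6), where 1.09% of all 10849 genes tested fell and 5.35% changed in either direction. The same 5 genes lay below every PBS library and Pcp4 lay above. Of all genes tested, which again left out Iyd, 17.5% had no overlap downwards and 18.4% upwards.

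Spink8, a Kazal-type serine protease inhibitor gene (chr9:109812280-109826633, plus strand), was at 61.2, 66.7 and 132 FPKM in the AAV control input libraries #1 to #3, at 126, 111 and 123 in PBS and at 31.4, 30.0 and 52.8 in KA. The KA libraries were all below the controls, and AAV control #3 was far above the other AAV controls, near the PBS level. Spink8 fell by 1.65 on the log2 scale (SE 0.22) against PBS, with an adjusted p of 0.000445 in edgeR's quasi-likelihood test. Against AAV control the log2 fold change was -1.19 (SE 0.40, adjusted p = 0.158), and it was -0.67 without AAV control #3. KA and AAV control samples of the same number shared a sequencing run and deviated together, and with the replicate number as a block the value was -1.15 with an adjusted p of 0.00103. Within the first run alone (2 libraries against 2) the log2 ratio of mean FPKM was -1.06, and in the second run (1 against 1) it was -1.32.

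Neurod6, a bHLH transcription factor gene of postmitotic glutamatergic neurons (chr6:55677822-55681263, minus strand), had the same pattern. Its values were 67.7, 70.3 and 109 FPKM in AAV control input, 102, 83.5 and 86.5 in PBS and 33.2, 31.7 and 45.1 in KA, with no overlap between KA and either control. It fell by 1.31 on the log2 scale (SE 0.18, adjusted p = 0.000629) against PBS. Against AAV control the log2 fold change was -1.17 (SE 0.28, adjusted p = 0.0608), and -0.84 without AAV control #3. With the replicate block it was -1.15 with an adjusted p of 0.000599. Of the other 8 genes, Spink8 followed Neurod6 most closely over the 9 input libraries (Pearson r = 0.973, a description that includes the group differences), and the same pair was the closest for Neurod6 over the 9 IP libraries (r = 0.979).

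Fibcd1, which encodes a receptor for acetylated compounds such as chitin (chr2:31813290-31846005, minus strand), was at 10.8, 10.7 and 14.2 FPKM in AAV control input, at 13.97, 12.2 and 17.2 in PBS and at 5.61, 6.32 and 6.46 in KA. The KA values were the tightest of the groups and lay below every control. It fell by 1.24 on the log2 scale (SE 0.13, adjusted p = 9.89e-05) against PBS. Against AAV control the log2 fold change was -0.96 (SE 0.19, adjusted p = 0.0329), just under the 2-fold criterion.

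Pou3f1, a POU-domain transcription factor gene (chr4:124656807-124660655, plus strand), was at 23.8, 25.03 and 25.6 FPKM in AAV control input, at 22.3, 19.6 and 19.3 in PBS and at 15.02, 12.7 and 10.01 in KA. All KA libraries were lowest, and the PBS libraries were also all below the AAV control libraries. Its log2 fold changes were -0.99 (SE 0.16, adjusted p = 0.0121) against AAV control and -0.72 (SE 0.14, adjusted p = 0.00379) against PBS, both under the 2-fold criterion. Pou3f1 overlaps a gene on the opposite strand, Gm2164, with at most 13 counts in a library.

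Iyd, the iodotyrosine deiodinase gene (chr10:3540240-3554877, plus strand), was the rarest of the 9 and did not pass the FPKM filter because all KA input libraries were below 1. Its counts were 28, 24 and 79 in AAV control input, 42, 31 and 44 in PBS and only 3, 8 and 10 in KA, which corresponds to 0.187, 0.517 and 0.604 FPKM. All KA input libraries lay below every control library. For KA against each control, Iyd was fitted with edgeR's filterByExpr in place of the FPKM filter, and it entered that fit through the control libraries, where it was high. Its fitted log2 fold changes, -2.57 (SE 0.55) against AAV control and -2.43 (SE 0.42) against PBS, are therefore given as a description with no test.

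The remaining 4 genes had log2 fold changes nearer to 0 in input. Wfs1, which encodes the endoplasmic reticulum membrane protein wolframin (chr5:36966104-36989205, minus strand), was at 16.6, 17.9 and 16.2 FPKM in AAV control, 12.9, 16.8 and 18.8 in PBS and 11.6, 19.7 and 11.97 in KA. KA input #2 was the highest of the 9 input libraries and KA #1 the lowest, and the log2 fold changes were -0.23 (SE 0.20) against AAV control and -0.17 (SE 0.18) against PBS. Man1a, an alpha-mannosidase gene of N-glycan processing (chr10:53904785-54076609, minus strand), was between 2.30 and 3.94 FPKM in all 9 input libraries, with log2 fold changes of -0.15 (SE 0.18) and -0.11 (SE 0.14). Man1a overlaps 2 genes on the opposite strand with at most 55 and 7 counts in a library.

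Bok, a BCL2-family gene with a role in cell death (chr1:93685660-93695764, plus strand), was at 76.8, 70.3 and 68.4 FPKM in AAV control input, 62.9, 59.3 and 64.9 in PBS and 85.1, 86.3 and 62.2 in KA. The KA libraries overlapped both control groups, and the log2 fold changes were 0.11 (SE 0.14, adjusted p = 0.75) against AAV control and 0.30 (SE 0.11, adjusted p = 0.0724) against PBS. Pcp4, which encodes a small calmodulin-binding protein (chr16:96467606-96525793, plus strand), was at 71.6, 64.4 and 90.4 FPKM in AAV control, 64.1, 73.0 and 70.2 in PBS and 104, 87.3 and 96.6 in KA. It lay above all PBS libraries, with a log2 fold change of 0.47 (SE 0.11, adjusted p = 0.00912, under 2-fold), and overlapped AAV control, with 0.34 (SE 0.19, adjusted p = 0.421). Of the genes known from CA3, Iyd thus lay below every control library in input, while Bok overlapped both control groups.

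**Figure D2:**
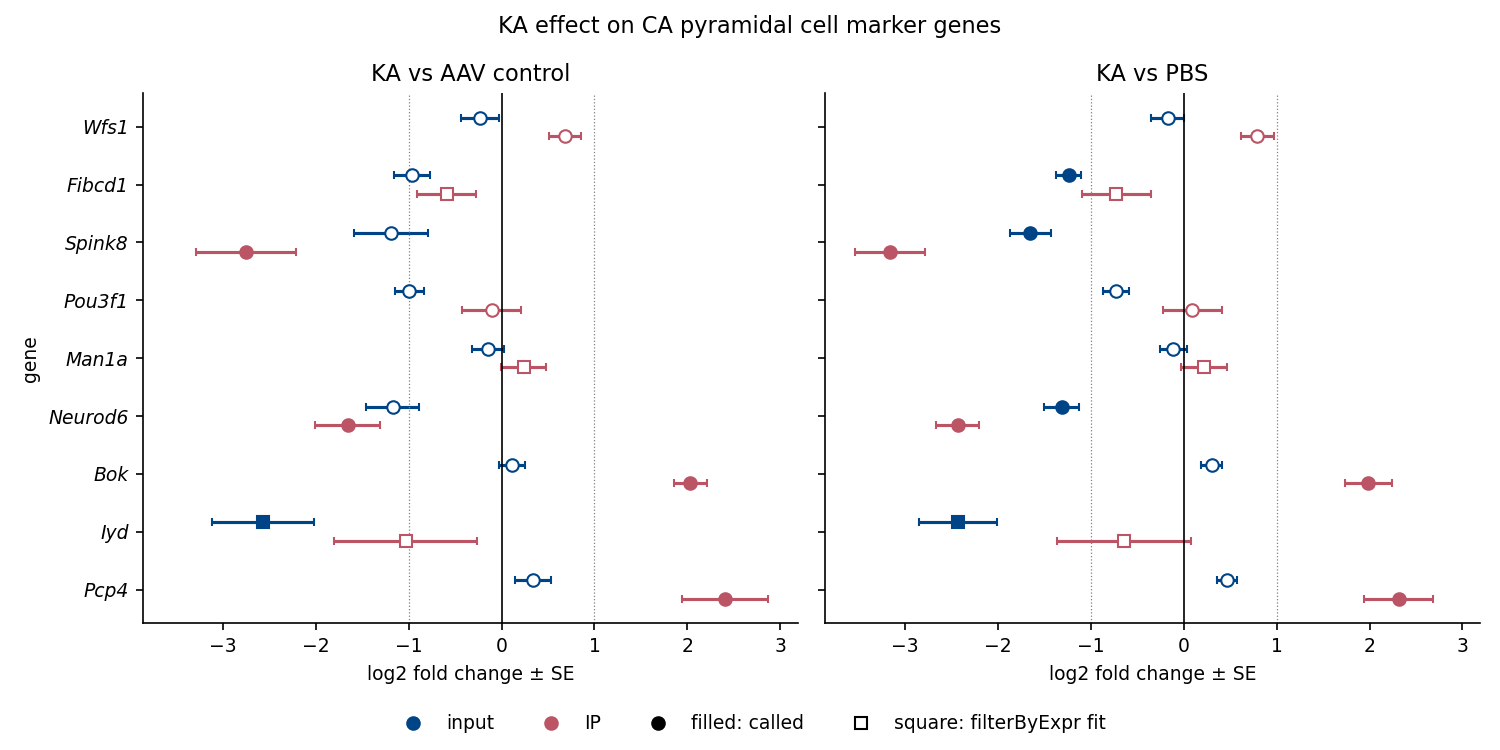
Log2 fold change of KA against AAV control (left) and against PBS (right) for the 9 genes, in input (blue) and IP (red), with bars for 1 SE. Filled symbols met both criteria in the fit shown, and squares are genes below the FPKM filter, taken from the filterByExpr fit. Iyd entered that fit in input through the control libraries, so its filled input squares are a description with no test. In input the points lie below 0 except for Bok and Pcp4, and in IP they spread in both directions, from -2.75 for Spink8 to 2.40 for Pcp4 against AAV control.

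Other markers of neurons were set beside the 9 genes. Of 14 further CA pyramidal genes, 11 passed the filter in KA against AAV control input and none met both criteria or the adjusted p alone, with a median log2 fold change of -0.46. Against PBS none of 11 met both criteria and 5 were lower by adjusted p alone, where 27.7% of all genes passed in either direction. The 8 glutamatergic neuron genes had a median of -0.53 against AAV control, where only Grin2a, an NMDA receptor subunit gene (-0.81, SE 0.16, adjusted p = 0.0285), passed the adjusted p, and a median of -0.46 against PBS, where 3 fell. The 8 genes shared by all neurons had medians of -0.32 and -0.47, and none met both criteria. Among 8 interneuron genes Pvalb (-1.15, SE 0.15, adjusted p = 0.00618) fell against AAV control, while Npy was at 1.51 (SE 0.50, adjusted p = 0.154), and the median was -0.14. Against PBS Npy rose (1.28, SE 0.34, adjusted p = 0.0174), Pvalb was under 2-fold (-0.61, SE 0.12, adjusted p = 0.00486) and the median was -0.39. The 3 of 7 dentate granule cell genes that passed the filter had medians of -0.35 and -0.29. In the filterByExpr fit, which took in all 7, the medians were -1.21 and -1.62. There 3 and 4 were called lower, where 0.438% and 1.96% of all genes in the fits were. Genes that were low in KA could enter these fits, like Iyd, through the control libraries. The calls are therefore given as a description.

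Glial markers moved the other way in the same input libraries. All 7 microglial genes that passed the filter (of 8) rose against AAV control, with a median log2 fold change of 2.07, and among them C1qa, a complement gene, rose by 3.77 (SE 0.31, adjusted p = 0.000977). Of 10 astrocyte genes 4 rose (Gfap, Aqp4, S100b and Kcnj10), with a median of 0.86, and Gfap, an intermediate filament gene, rose by 3.42 (SE 0.29, adjusted p = 0.000977). The summed FPKM of the astrocyte list was 971 to 1051 in KA input, 378 to 398 in AAV control and 439 to 450 in PBS, and that of the microglial list was 678 to 1227, 76.0 to 115 and 86.8 to 92.8. FPKM is a share of the library, and the part of this glial rise in the lower shares of the pyramidal cell genes was not tested. No oligodendrocyte gene met the criteria in input (median -0.02).

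**Figure D3:**
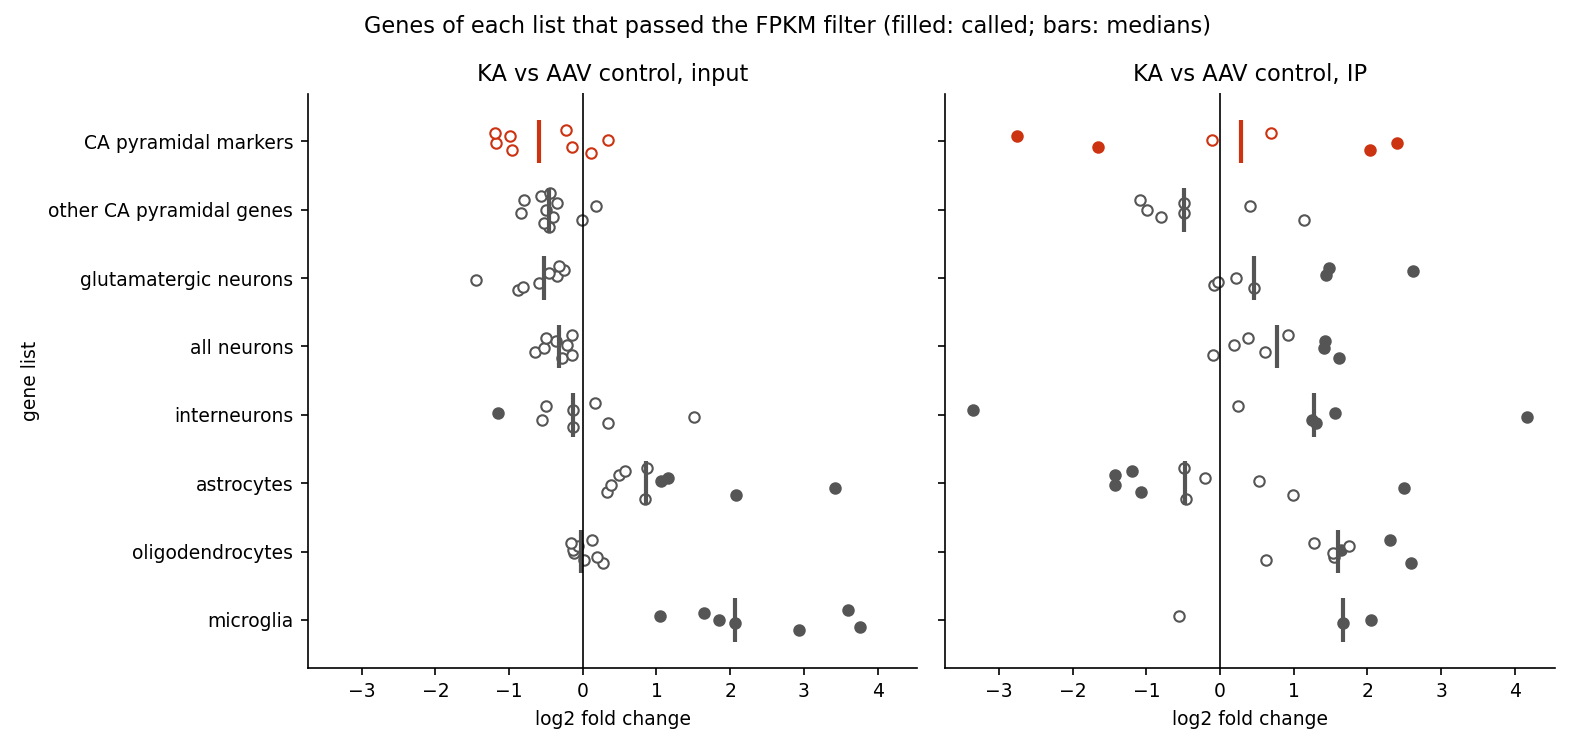
Log2 fold change of KA against AAV control for each gene that passed the FPKM filter, by list, in input (left) and IP (right), with filled points for genes that met both criteria and bars for list medians. In input the 8 CA pyramidal markers that passed (red) have a median of -0.60, below 0 like the neuronal lists, and the microglial list has the highest median, 2.07. In IP the 6 that passed run from -2.75 to 2.40.

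The genes outside the 9 whose pattern was most like the average of the 9 over the input libraries were Gm16213 (Pearson r = 0.948), Fam131a (0.948), Psd (0.944), Lrrn2 (0.942) and Car11 (0.941), out of 13120 genes compared. The values describe 9 libraries that include the group differences. All 5 were lower in KA input in mean FPKM. Fam131a was at 107 in KA, 153 in AAV control and 158 in PBS, and Gm16213 was at 0.325, 1.58 and 1.88.

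In IP, the RNA on ribosomes pulled down with GFP, the 9 genes were compared to see which pyramidal cell transcripts remained in the astrocyte fraction and whether KA changed them. Of the 6 genes that passed the filter in KA against AAV control, Spink8 and Neurod6 fell and Bok and Pcp4 rose, where 11.6% of 9729 genes changed, 5.22% downwards and 6.39% upwards. The same 4 genes changed in the same directions against PBS, a comparison that shares the KA libraries, where 17.4% of 9847 genes changed. All 3 KA IP libraries lay below every control library for Spink8 and Neurod6 and above every control library for Wfs1, Bok and Pcp4. Against AAV control this lack of overlap was seen for 20.2% of all genes downwards and 16.8% upwards, and against PBS for 23.3% and 22.7%.

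Spink8 was at 7.62, 4.97 and 17.1 FPKM in AAV control IP, 12.1, 7.14 and 21.7 in PBS and 1.42, 1.52 and 1.45 in KA, where each library held 13 counts. It fell by 2.75 on the log2 scale (SE 0.54, adjusted p = 0.0121) against AAV control, and against PBS its log2 fold change was -3.16 (SE 0.37, adjusted p = 0.000228). Neurod6 was at 9.23, 9.10 and 18.3 FPKM in AAV control IP, 22.2, 13.4 and 27.8 in PBS and 3.80, 3.84 and 3.82 in KA. Its log2 fold changes were -1.66 (SE 0.35, adjusted p = 0.0151) against AAV control and -2.43 (SE 0.23, adjusted p = 5.17e-05) against PBS. In both genes AAV control #3 was the highest AAV control library in IP as in input. Without KA IP #1 or #2 the adjusted p against AAV control rose to 0.0528 and 0.0516 for Spink8 and to 0.0621 and 0.0631 for Neurod6, with nearly the same fold changes.

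Bok was at 12.6, 16.4 and 14.7 FPKM in AAV control IP, 17.0, 8.04 and 19.4 in PBS and 64.7, 62.7 and 46.1 in KA. The lowest KA library was above the highest control by more than 2-fold. Bok rose by 2.03 on the log2 scale (SE 0.18, adjusted p = 0.000527) against AAV control and by 1.99 (SE 0.25, adjusted p = 0.000299) against PBS. Pcp4 was at 6.41, 5.81 and 10.3 FPKM in AAV control IP, 8.76, 5.63 and 9.38 in PBS and 22.0, 32.7 and 59.2 in KA. It rose by 2.40 (SE 0.46, adjusted p = 0.0116) and by 2.31 (SE 0.37, adjusted p = 0.0012), with a wide spread between the KA libraries. Pcp4 overlaps Igsf5 on the same strand, which had at most 4 counts in a library.

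Wfs1 was at 8.002, 7.15 and 5.24 FPKM in AAV control IP, 6.20, 6.13 and 5.66 in PBS and 11.6, 11.4 and 8.58 in KA. Every KA library was above every control, with log2 fold changes of 0.69 (SE 0.17, adjusted p = 0.0289) and 0.79 (SE 0.18, adjusted p = 0.00666), under the 2-fold criterion. Pou3f1 overlapped between groups, with 4.20, 4.48 and 2.98 FPKM in AAV control, 4.26, 2.48 and 2.94 in PBS and 4.55, 4.34 and 1.66 in KA, and log2 fold changes of -0.11 (SE 0.32) and 0.09 (SE 0.32). Fibcd1, Man1a and Iyd had an IP library below 1 FPKM and were fitted with filterByExpr. Fibcd1 gave -0.59 (SE 0.32, adjusted p = 0.227) and -0.72 (SE 0.37, adjusted p = 0.138), Man1a 0.24 (SE 0.24) and 0.22 (SE 0.25), and Iyd, with 2 to 28 counts per IP library, -1.03 (SE 0.77) and -0.64 (SE 0.72).

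Sums of several marker lists of other cells were higher in KA IP than in the controls, though not in every library. That of 5 neocortex genes was lower, at 7.89 to 11.2 in KA IP, 17.4 to 20.5 in AAV control and 17.4 to 19.97 in PBS. Of 10 astrocyte genes 4 fell and 1 rose against AAV control, and 3 fell and 1 rose against PBS. The summed FPKM of the 8 glutamatergic neuron genes was 1316, 1750 and 2216 in KA IP #1 to #3, 453, 443 and 357 in AAV control and 584, 313 and 476 in PBS. That of the 8 oligodendrocyte genes was 2618, 1818 and 1378 in KA IP, 258, 335 and 1119 in AAV control and 387, 289 and 594 in PBS. All 8 oligodendrocyte genes passed the filter, 3 of them rose against AAV control and all 8 against PBS, while none met the criteria in input. None of these genes was at 0 in a whole group. The sum of the 7 dentate granule cell genes was 21.0, 40.7 and 48.1 in KA IP, 16.9, 16.6 and 15.8 in AAV control and 22.6, 15.3 and 22.3 in PBS, and that of the 8 interneuron genes was 312, 643 and 3087, 210, 303 and 303, and 528, 272 and 220. Both sums rose from KA IP #1 to #3, as Pcp4 did and Bok did not, and in KA IP #1 both lay within the PBS range. The order was not particular to these lists. The glutamatergic, all-neuron (231, 262 and 318) and astrocyte (5253, 5558 and 6209) sums also rose from #1 to #3, while several others, among them the oligodendrocyte sum, fell. Against AAV control 2 of the 3 granule cell genes tested rose (Prox1 and C1ql2), and 4 of 6 interneuron genes rose and 1, Sst, fell. The part of RNA from these cells in the values of Bok and Pcp4 was not tested. Of the other 14 CA pyramidal genes, 7 passed the filter in KA against AAV control IP, none met both criteria and the median was -0.49, and against PBS 2 fell, 1 rose and the median was -0.71. No glutamatergic or all-neuron gene fell by both criteria in either comparison. Against AAV control 3 of each list rose (medians of 0.46 and 0.77), and against PBS 2 and 3 rose (medians of -0.11 and 0.47).

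Over the 9 IP libraries Pcp4 was the gene most like Bok among the 9 (r = 0.876), and the average profile of the 9 did not separate the groups, with members that went in opposite directions. The genes closest to that average, Golm1 (r = 0.951), Gpr45 (0.944), Anks1b (0.939), Spats2l (0.937) and 6330418K02Rik (0.934) of 13105 compared, had similar mean levels in the 3 groups. Anks1b was at 7.24 FPKM in KA, 6.65 in AAV control and 7.56 in PBS.

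The ratio of IP to input of the same homogenate asks how far a transcript was depleted from the pulled-down ribosomes. In the control groups all 9 genes were lower in IP than in input with no overlap between the libraries. This was so for 30.8% of genes tested in AAV control and 34.3% in PBS. The genes tested did not include Iyd in either group or Fibcd1 in PBS. In AAV control 7 of 8 genes tested were depleted by both criteria, where 13.1% of 9961 genes were, and in PBS 6 of 7, where 12.3% of 10401 were. Man1a was the exception in both, with -0.96 (SE 0.19, adjusted p = 0.00531) and -0.87 (SE 0.18, adjusted p = 0.00162) on the log2 scale. Pcp4 and Spink8 were the most depleted genes, with log2 values of -3.16 (SE 0.33) and -2.94 (SE 0.57) in AAV control and -3.00 (SE 0.17) and -3.07 (SE 0.24) in PBS. In KA 4 of 6 genes tested were depleted (Spink8, Neurod6, Pou3f1 and Pcp4), where 4.51% of 10098 genes were. The Pcp4 value was -1.08 (SE 0.36, adjusted p = 0.0491), and the call was lost without KA IP #1 or #2 or without any 1 KA input library (adjusted p of 0.0742 to 0.144). Bok (-0.21, SE 0.14, adjusted p = 0.27) and Wfs1 (-0.24, SE 0.20, adjusted p = 0.389) were not called. In KA 7 of the 9 genes had no overlap between IP and input. Among the genes tested, which left out Fibcd1, Man1a and Iyd, 35.1% had none downwards.

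Among single homogenates, the Bok ratio was 0.164, 0.233 and 0.215 in AAV control, 0.270, 0.136 and 0.299 in PBS and 0.760, 0.727 and 0.741 in KA. That of Pcp4 was 0.0895, 0.0902 and 0.114 in AAV control, 0.137, 0.0771 and 0.134 in PBS and 0.211, 0.374 and 0.613 in KA. Both were higher in every KA homogenate than in any control. For this and the ratios below, the share of all genes with no overlap between groups was not computed. The change of the ratio was tested as an interaction of KA and library kind, in a fit that did not pair IP and input of a homogenate. Against AAV control it was 1.93 on the log2 scale (SE 0.21, adjusted p = 0.000411) for Bok and 2.07 (SE 0.53, adjusted p = 0.0237) for Pcp4. Against PBS it was 1.69 (SE 0.28, adjusted p = 0.00121) and 1.84 (SE 0.41, adjusted p = 0.00639). These were the 2 of 6 genes called against AAV control, where 9.42% of 9180 genes were, and 2 of the 4 called against PBS, where 13.9% of 9305 were. For Pcp4 against AAV control, leaving out AAV control IP #1 or #2 or KA input #1 or #2 moved the adjusted p to between 0.0583 and 0.0651.

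The Spink8 ratio went the other way. It was 0.125, 0.0745 and 0.130 in AAV control, 0.0959, 0.0645 and 0.176 in PBS and 0.0453, 0.0506 and 0.0274 in KA, below every control homogenate. The interaction was -1.51 (SE 0.48, adjusted p = 0.0326) against PBS and -1.55 (SE 0.75, adjusted p = 0.213) against AAV control, and -1.43 with an adjusted p of 0.0044 with the homogenate as a block. Neurod6 was at 0.115, 0.121 and 0.0847 in KA, below every PBS homogenate (0.160 to 0.321) and every AAV control homogenate (0.129 to 0.168), with interactions of -1.12 (SE 0.30, adjusted p = 0.0164) and -0.47 (SE 0.48, adjusted p = 0.594). In the PBS comparison the Spink8 call was lost without any 1 of the KA IP or PBS input libraries, without PBS IP #3 and without KA input #3 (adjusted p of 0.0504 to 0.0794). Without PBS IP #3 or KA input #3 the Neurod6 value was under 2-fold (-0.98 and -0.85), as it was with filterByExpr (-0.89) and with no filter (-0.83). With all 18 libraries in one edgeR fit both calls were lost (adjusted p of 0.152 for Spink8 and 0.096 for Neurod6). With limma-voom the Spink8 call was lost (adjusted p = 0.0942).

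Wfs1 ratios were 0.998, 0.577 and 0.717 in KA, above the control homogenates (0.301 to 0.482), with interactions of 0.94 (SE 0.27, adjusted p = 0.0395) and 0.96 (SE 0.27, adjusted p = 0.0198), just under the 2-fold criterion. Pou3f1 ratios were 0.303, 0.342 and 0.166 in KA against 0.117 to 0.191 in controls, with 0.90 (SE 0.37, adjusted p = 0.133) and 0.81 (SE 0.38, adjusted p = 0.132). Fibcd1 (0.40, SE 0.37, and 0.56, SE 0.40) and Man1a (0.41, SE 0.30, and 0.39, SE 0.29), both from the filterByExpr fit, were not called. Iyd ratios rest on as few as 2 counts and are not given.

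**Figure D4:**
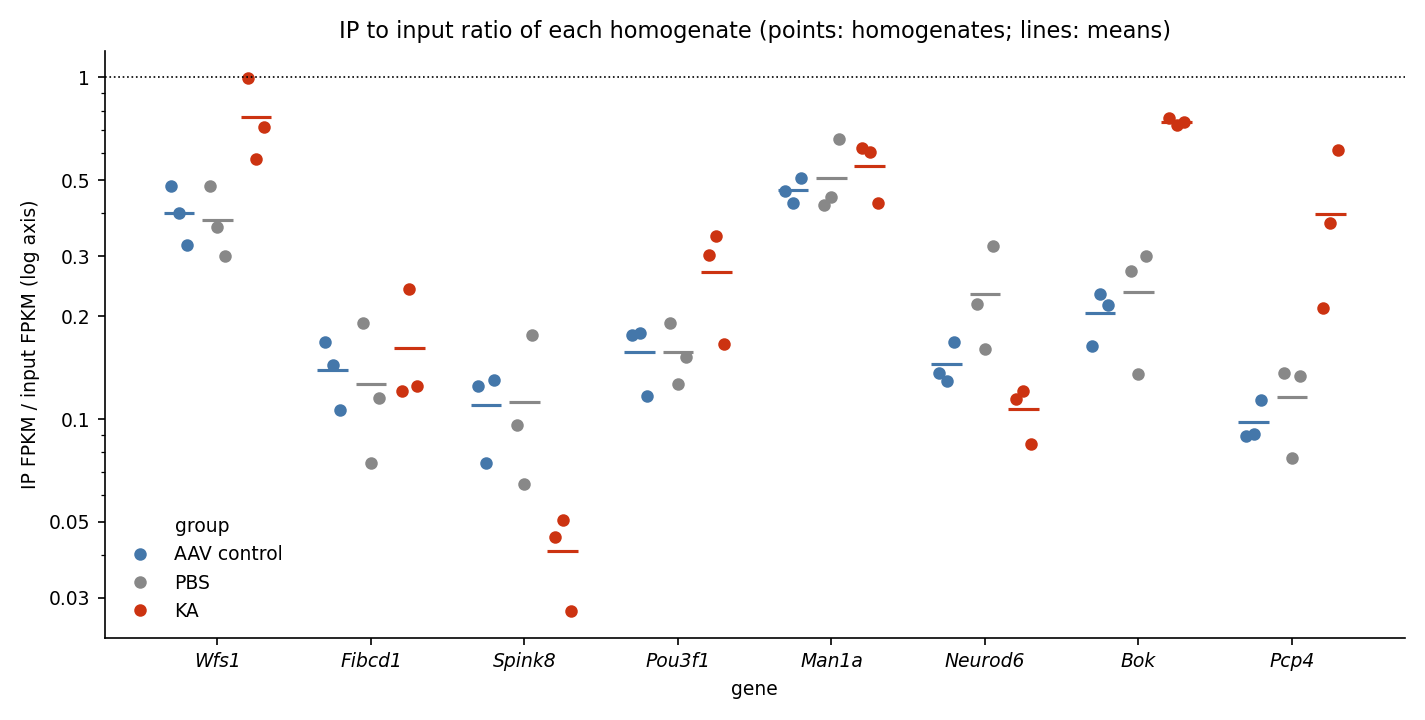
Ratio of IP FPKM to input FPKM of the same homogenate (log axis) for 8 of the 9 genes, leaving out Iyd for its low counts, by group. Each point is 1 homogenate and each line the mean of 3, and the dotted line marks equal levels. The 3 KA homogenates lie above all 6 controls for Wfs1, Bok and Pcp4 and below all 6 for Spink8 and Neurod6. The share of all genes with no such overlap was not computed.

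Astrocyte markers themselves had a lower IP to input ratio after KA. Of 10 astrocyte genes, 7 had a lower ratio against AAV control and 6 against PBS, with median log2 changes of -1.34 and -1.26. The 8 oligodendrocyte genes had medians of 1.72 and 1.94, the 8 all-neuron genes 1.17 and 1.02, and the 3 microglial genes that passed the filter -1.60 and -1.81. The part of this shift in the ratios of the pyramidal cell genes was not tested.

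PBS injection and AAV alone were compared as the study's controls. None of the 9 genes was called in input, IP or the ratio. Of the 10924, 10667 and 9597 genes tested, edgeR called 0 (0%) in each, while 8.25%, 10.8% and 4.16% had an unadjusted p under 0.05. DESeq2 called 14, 16 and 5 genes, none of them among the 9. The fitted log2 fold changes of the 9 genes ranged from -0.25 to 0.48 in input, and those of the 7 genes tested in IP from -0.21 to 0.76. The largest of these was Neurod6 in IP at 0.76 (SE 0.34, adjusted p = 0.454). In input Pou3f1 and Bok were lower in all PBS than in all AAV control libraries, where 5.9% of genes had no overlap in that direction.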

How the data were processed

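RNA-seq libraries were prepared from 9 input and 9 IP samples with the NEBNext Ultra II RNA kit. Per the submitters' processing notes and the study's methods, the authors aligned reads to mm10 with STAR, and the notes also name featureCounts and edgeR. For each library the authors deposited whole-number read counts per gene symbol without normalization, and separately the deposited FPKM values, which are scaled by library total and gene length. Strand handling and the treatment of multi-mapping reads are not given in the sources used here. Every deposited value column belonged to 1 labelled sample.

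Counts were tested with the quasi-likelihood test of edgeR 4.0.16 under R 4.3.3, after TMM scaling, and p-values were adjusted by Benjamini-Hochberg over every gene in the fit. The filter was FPKM above 1 in each library compared, and genes outside it were fitted with filterByExpr. A gene was called when its adjusted p was under 0.05 and it changed by 1 or more on the log2 scale. The IP to input ratio was tested as an interaction over 12 libraries. In the main fits of this ratio and of IP against input, libraries of the same homogenate were not paired. Their SE and adjusted p therefore leave the pairing out, and only the replicate block took it in. SE was the log2 fold change divided by the root of F. Alternatives used DESeq2 1.42.0 (test or size factors), limma 3.58.1 voom, other filters, all 18 libraries in one fit, the replicate block, the sequencing run and leaving out each library. A count of 0 allows an expected count of up to 3, which covers counting error only, and totals of 7991681 to 16032180 limit the precision of the rare genes. The fits were tested on simulated data.

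IP and input of the same number shared a homogenate, and their deviations from group means correlated at 0.12 to 0.72. KA and AAV control libraries of the same number also deviated together (0.30 to 0.50 in input, 0.31 to 0.52 in IP), and the study's methods give samples of the same number a shared run, while PBS libraries did not pair with either. Replicates are pools of mice, and p-values measure the spread between pools.

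Named were all 9 genes, the list genes with an adjusted p under 0.05 in KA against AAV control input (at most 4 a list), and the 5 genes most like the average of the 9 in input and in IP, by correlation of log2 CPM (prior count 2). Other genes named were overlapping genes and the choroid plexus markers. Npy, Sst, Prox1 and C1ql2 fell outside these rules. Npy was named for its values in input, and Sst, Prox1 and C1ql2 for their results in IP. The members and lists were chosen with earlier results of these data known. Gene positions come from GENCODE on GRCm38, and 1 list gene, Nov, was found under its current symbol Ccn3. Promoter windows come from RefSeq (GRCm38.p6).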

Additional observations from a re-analysis of the deposited data

Results flagged for a closer look

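For 5 genes the effect of KA in IP was unlike that in input by the adjusted p of edgeR's interaction test, with no minimum fold. Of all genes tested, 13.2% passed this rule against AAV control and 25.5% against PBS. Against AAV control the effect in IP minus that in input was 1.93 on the log2 scale for Bok, 2.07 for Pcp4 and 0.94 for Wfs1. Against PBS, which shares the KA libraries, it was 1.69 for Bok, 1.84 for Pcp4, 0.96 for Wfs1, -1.51 for Spink8 and -1.12 for Neurod6. In each case all 3 KA homogenates had an IP to input ratio on the same side of all 3 control homogenates, a pattern whose share over all genes was not computed. Groups of 3 libraries are too small for the check of single outlying samples.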

How the results depend on the processing

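Of 933 values of single genes under an alternative setting, 853 kept their direction and their side of the criteria, 42 passed them newly, 29 no longer passed and 9 changed sign. For KA against AAV control input, where 0 of the 9 genes met both criteria, 2 did with DESeq2, 3 with filterByExpr, 5 with no filter (both with Iyd, which entered through the control libraries), 1 with all 18 libraries in one fit, 2 with the replicate block, 2 with the sequencing run as a covariate, 2 within run 1 only and 0 to 1 when 1 library was left out. The 1 gene was Pou3f1, without KA input #1 or AAV control input #1 or #2. With an adjusted p under 0.05 and no minimum fold, an alternative chosen after seeing the data, 2 genes passed there and 5 in place of 3 in KA against PBS input. Leaving out 1 library gave 2 to 4 genes in KA against AAV control IP (2 without KA IP #1 or #2) and 0 to 1 in PBS against AAV control IP (Neurod6, without AAV control IP #3). For the IP to input ratio, KA against AAV control gave 4 genes with no filter and 1 to 4 when 1 library was left out (1 without AAV control IP #2 or KA input #1, 4 without KA IP #3), and KA against PBS gave 2 with all 18 libraries in one fit and 2 to 5 when 1 library was left out (2 without PBS IP #3 or KA input #3). The Wfs1 ratio, at 0.94 and 0.96 on the log2 scale, passed 2-fold in 5 settings against AAV control and 9 against PBS. The replicate block, for the ratio the homogenate, also brought the Spink8 ratio against AAV control past the criteria, and it changed no other call. Log2 fold changes that changed sign were all small. Man1a in input ran from -0.246 to 0.001 against AAV control and from -0.216 to 0.0036 against PBS when 1 library was left out, Pou3f1 in IP from -0.30 to 0.204 against AAV control (0.0994 within run 1 only) and from -0.0905 to 0.409 against PBS, and the Neurod6 ratio against AAV control from -0.785 to 0.0468. The 292 genes of KA against AAV control input became 485 with no minimum fold, 819 with filterByExpr, 1169 with no filter and 682 within run 1 only (133 to 588 when 1 library was left out). With no minimum fold, filterByExpr and no filter, 580 became 3006, 1582 and 1973 for KA against PBS input, 1130 became 1960, 2121 and 2823 for KA against AAV control IP, 1716 became 3647, 4093 and 5023 for KA against PBS IP, and 1289 became 2373, 2397 and 2635 for the ratio of KA against PBS. In the same order IP against input went from 2626 to 3959, 4329 and 4965 in AAV control, from 2818 to 5853, 5037 and 5736 in PBS and from 1274 to 3477, 2680 and 3146 in KA. The ratio of KA against AAV control went from 865 to 1693 with no filter and 1358 within run 1 only. PBS against AAV control went from 0 to 127, 253 and 41 genes with no filter in input, IP and the ratio, and up to 365 and 546 in input and IP without AAV control #3. Apart from the number of genes or libraries in a fit, the cause was not tested. Iyd, with 2 to 10 counts in its lowest libraries, was the gene most limited by depth.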
